A study of Arabidopsis thaliana with 4 samples.

Results

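Alpha-expansins are small secreted proteins that loosen the plant cell wall at acid pH, without cutting its polymers, so that cells can expand. The Arabidopsis family is named EXPA with a number, and its members differ in the organs where they are used. EXPA7 and EXPA18 are the root hair members, switched on in root epidermal cells that form a hair. EXPA8 is among the members known to respond to growth hormones such as brassinosteroid.

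The genes described here are all those with the symbol EXPA and a number that had a probe set matched to them alone by the platform annotation. The rule found 10 genes among the 13356 genes of the arrays that could be named in this way, and each of the 10 had 1 probe set. They were EXPA4, EXPA7, EXPA8, EXPA9, EXPA15, EXPA16, EXPA18, EXPA20, EXPA21 and EXPA24, of which 2 are root hair genes and 8 are others. Of 26 alpha-expansin genes listed for Arabidopsis, 4 more shared a probe set with another alpha-expansin and 12 were not analysed here.

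The study profiled dissected shoot apices of Arabidopsis thaliana on 4 arrays, from seedlings that were 8 days old. Every plant was Ws-0 with 35S:LEC1-GR, in which a strong and widely active viral promoter drives LEC1, a regulator of embryo development, joined to a glucocorticoid receptor domain that dexamethasone activates. The treated group (2 arrays) came from seedlings kept in liquid medium with 30 µM dexamethasone for 1 h, and the untreated group (2 arrays) from seedlings kept in the medium without it. Plants without the fusion were not among the samples, so an effect of dexamethasone alone cannot be told apart from one of LEC1-GR. LEC1 itself was not analysed here, so the labels were not checked against its level. The series describes the replicates as biological, and the sources used here do not say whether arrays of equal number were prepared together.

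Values are log2 expression values from RMA, a method that corrects background, brings arrays to a common distribution and combines the probes of a set. A difference of 1 on this scale is a doubling. Levels of different probe sets cannot be set against each other, since probes bind with unequal strength. As a guide to dimness, the highest of 27 probe sets for Bacillus transcripts was taken in each array, 4.68 to 4.86, and is called the control level. Differences are treated minus untreated, with limma's standard error (SE) or 95% interval, and a gene was called at an adjusted p under 0.05 (limma, two-sided, Benjamini-Hochberg over 22746 probe sets).

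Untreated replicate 2 stood apart for genes of root hairs, as described further on. Those genes were also higher in treated replicate 2 than in treated replicate 1. The control probe set for 25S ribosomal RNA was also high in replicate 2 of both groups, at 8.22 and 10.96 in untreated replicates 1 and 2 and at 8.96 and 10.48 in treated replicates 1 and 2; its part in the results was not tested. The 3′ minus 5′ signal of actin, a sign of RNA integrity, was 0.99 and 1.07 in the untreated and 1.08 and 1.43 in the treated arrays. Of the shoot apex markers 4 of 20 had a probe set matched to them alone in the annotation used. Such genes are called measured here and in the lists below, whatever their signal. The summed linear signal of the 4, most of it from YAB3, was 308 and 321 untreated and 315 and 293 treated. YAB3, of leaf polarity, was clearly detected (7.66 to 7.82), while the stem cell gene CLV3 was at or below the control level in 3 of 4 arrays.

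EXPA8 was the only called alpha-expansin gene, and it fell with dexamethasone. Its level was 10.40 and 10.01 in the untreated arrays and 7.89 and 7.76 in the treated arrays. Both treated arrays lay far below both untreated arrays, and the gap between groups was much wider than that between the replicates of either group. The group means were 10.20 ± 0.27 untreated and 7.83 ± 0.09 treated (SD, n = 2 each). The difference was -2.38 ± 0.17 (SE), a 5.19-fold lower level with a 95% interval of 3.81 to 7.08-fold (limma adjusted p = 0.0228). Among all 22746 probe sets its difference had rank 19 from the lowest. Every array of EXPA8 lay above the control level. Without treated replicate 1 or 2 it was not called (limma adjusted p = 0.234 and 0.206), at differences of -2.44 and -2.31. In these fits no probe set was called, with 2672 and 2448 at an unadjusted p under 0.05.

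**Figure D1:**
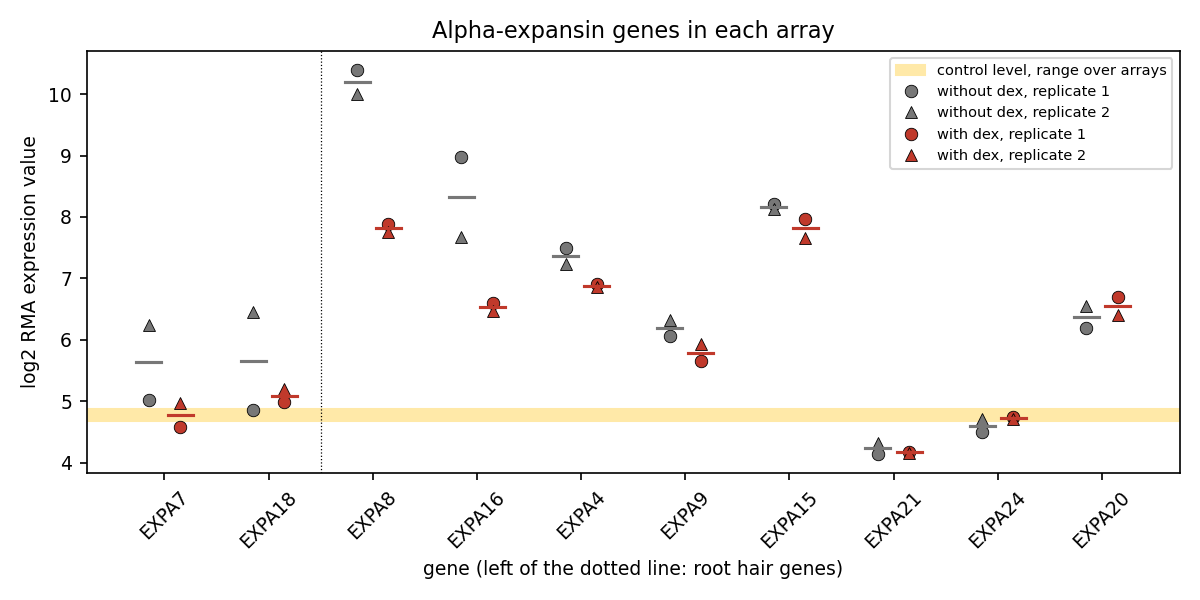
Log2 RMA value (vertical axis) of the 10 alpha-expansin genes in each of the 4 arrays. Grey marks untreated and red treated arrays, circles replicate 1 and triangles replicate 2, short lines are group means and the yellow band is the control level (4.68 to 4.86). EXPA8 shows the widest gap between groups, EXPA16 and both root hair genes have widely spread untreated arrays, and EXPA21 and EXPA24 do not exceed the control level of their arrays.

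EXPA16 had the second lowest difference of the family, and it was not called. Untreated arrays read 8.98 and 7.67, and treated arrays read 6.60 and 6.47. The groups did not overlap, but the untreated replicates lay far apart. Their gap, replicate 2 minus 1, was -1.31, larger in size than that of 98.4% of all probe sets, while the treated gap was -0.13. The difference was -1.79 ± 0.43 (SE), with a 95% interval of -2.88 to -0.69 (limma adjusted p = 0.118). With either untreated array left out the gene was called lower, at -1.13 without replicate 1 (limma adjusted p = 0.0299) and at -2.44 without replicate 2 (0.0281). In these fits the gene's own spread comes from the treated pair alone, which lies close together. It is drawn by limma towards the typical spread of all probe sets. With all values raised to at least the control level it was called too (limma adjusted p = 0.0204). That floor left the values and difference of EXPA16 unchanged, and only its SE fell, from 0.43 to 0.35. Over all probe sets 646 were then called lower, against 200 without the floor, so this call adds no support.

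EXPA4, EXPA9 and EXPA15 had small negative differences and were not called. EXPA4 stood at 7.50 and 7.24 untreated and at 6.90 and 6.86 treated, a difference of -0.49 with a 95% interval of -0.86 to -0.12 (limma adjusted p = 0.182). EXPA9 stood at 6.06 and 6.33 untreated and at 5.66 and 5.92 treated, a difference of -0.40 with an interval of -0.83 to 0.02 (0.318). EXPA15 stood at 8.20 and 8.13 untreated and at 7.97 and 7.66 treated, a difference of -0.35 with an interval of -0.75 to 0.04 (0.344). In all 3 genes both treated arrays lay below both untreated arrays, as in 24.8% of all probe sets. The lower bounds of their intervals are changes of 1.82-fold for EXPA4 and less for the other two, so a fall as large as that of EXPA8 lies outside them.

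EXPA20, EXPA21 and EXPA24 had differences near 0 and were not called. EXPA20 stood at 6.19 and 6.55 untreated and at 6.70 and 6.40 treated, with overlapping groups and an interval of -0.31 to 0.67 around 0.18. EXPA21 stood at 4.14 and 4.32 untreated and at 4.18 and 4.15 treated. EXPA24 stood at 4.49 and 4.70 untreated and at 4.74 and 4.72 treated. Neither EXPA21 nor EXPA24 exceeded the control level in any array, so both were near background and their differences of -0.07 and 0.13 carry little information. EXPA21 and EXPA24 belong to a run of 6 alpha-expansin genes, EXPA21 to EXPA26, with 0 other genes between them in the RefSeq gene table of TAIR10.1. The other genes of that run are read by 2 shared probe sets, for EXPA22 with EXPA26 and for EXPA23 with EXPA25. Both shared probe sets were at or below the control level in 4 of 4 arrays, at 3.79 to 4.02 and at 3.86 to 4.32. The whole run was therefore dim in these shoot apices, with or without dexamethasone.

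**Figure D2:**
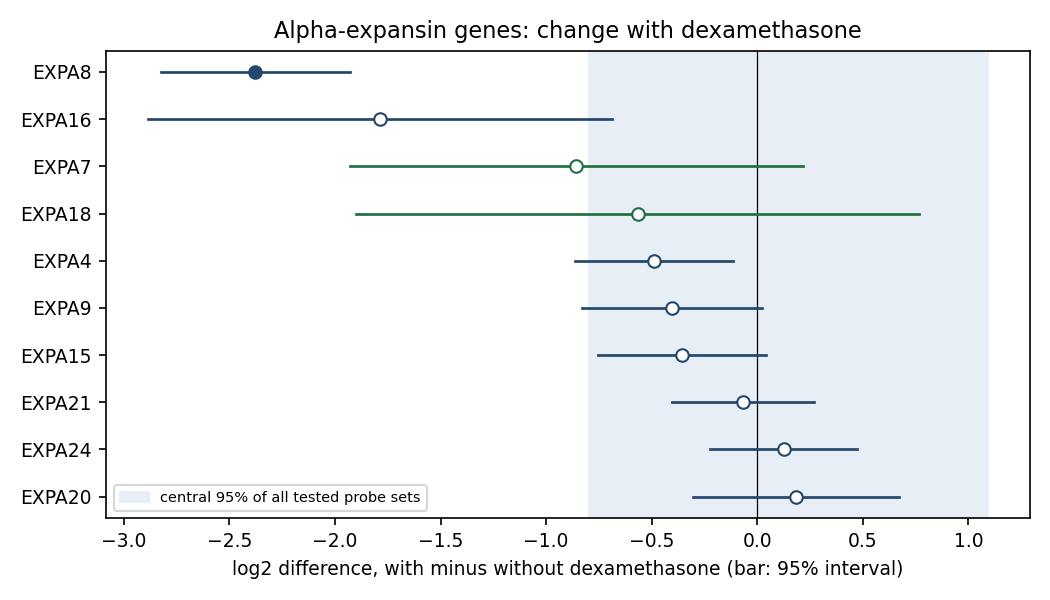
Log2 difference (treated minus untreated, horizontal axis) of the 10 alpha-expansin genes with its 95% interval from limma. Green are root hair genes and blue the others, the filled point is the called gene, and the shaded band holds the central 95% of differences of all tested probe sets (-0.80 to 1.09). EXPA8 and EXPA16 lie well to the left of the band and EXPA7 just outside it, while the other 7 genes lie inside.

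The root hair genes EXPA7 and EXPA18 were not called, and their differences depended on 1 untreated array. EXPA7 read 5.03 and 6.25 without dexamethasone and 4.59 and 4.97 with it. EXPA18 read 4.86 and 6.46 without dexamethasone and 4.98 and 5.20 with it. Only untreated replicate 2 was well above the control level for either gene. The untreated and treated values of EXPA7 did not overlap, by a narrow margin, and those of EXPA18 did. The differences were -0.86 with a 95% interval of -1.93 to 0.21 for EXPA7 (limma adjusted p = 0.399) and -0.57 with an interval of -1.90 to 0.77 for EXPA18 (0.686).

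Leaving out an untreated array moved both root hair genes in opposite ways. Without untreated replicate 2 EXPA7 stood at -0.25 and EXPA18 at 0.23. Without untreated replicate 1 they stood at -1.47 and -1.37. In that fit untreated replicate 2 is the whole untreated group. Each gene's own spread then comes from the treated pair alone, so a call there says nothing on the spread of untreated arrays. The gap between the untreated replicates, 2 minus 1, was 1.22 for EXPA7 and 1.60 for EXPA18, while the central 95% of all probe sets lay between -0.76 and 0.83. Between the treated replicates the gaps were 0.39 and 0.22, of the same sign. There the central 95% of all probe sets lay between -0.56 and 0.56. In bulk tissue, fewer cells of a type and less RNA per cell cannot be told apart.

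Other genes known from root hairs had their highest value in the same array. PRX44 (AT4G26010), a root hair peroxidase and the only measured gene of 21 on the root hair list, stood at 5.90 and 9.19 untreated and at 5.22 and 6.62 treated. XTH26, a xyloglucan-modifying enzyme of root hairs, stood at 4.18 and 5.85 untreated and at 3.87 and 4.12 treated. EXPA7, EXPA18 and PRX44 were thus highest in untreated replicate 2, as were 28.6% of all probe sets. So was XTH26, which comes from the XTH list and was singled out here after its values were seen. The untreated gap of PRX44, 3.29, had rank 3 of 22746 from the top, XTH26 rank 135, EXPA18 rank 156 and EXPA7 rank 278. The treated gap of PRX44 was 1.40, larger in size than that of 99.8% of all probe sets, and that of XTH26 was 0.25. Neither PRX44 nor XTH26 was called, at -1.62 ± 1.13 and -1.02 ± 0.54 (SE). XTH26 exceeded the control level only in untreated replicate 2. Without that array PRX44 and XTH26 stood at 0.02 and -0.18, and without untreated replicate 1 they stood at -3.27 and -1.85. In both fits a single untreated array is left, so each gene's own spread comes from the treated pair alone.

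**Figure D3:**
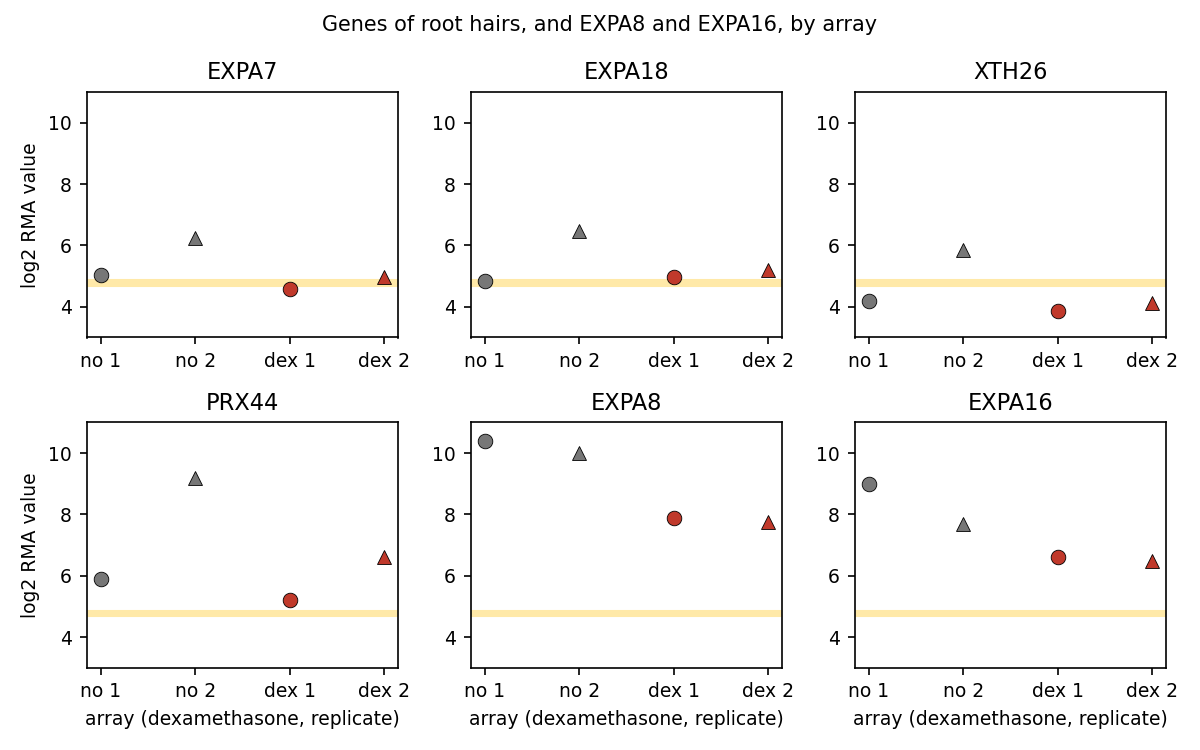
Log2 RMA value (vertical axis) by array for the root hair genes EXPA7, EXPA18, XTH26 and PRX44 and for EXPA8 and EXPA16. Grey marks untreated (no) and red treated (dex) arrays, and the yellow band is the control level. The 4 root hair genes peak in untreated replicate 2, EXPA16 peaks in untreated replicate 1, and the untreated gap of EXPA8 is -0.39.

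Few root markers outside the root hair had a probe set matched to them alone in the annotation used. Of 20 root genes 3 were measured, and their summed linear signal, nearly all from PYK10, was 3068 and 4994 untreated and 3653 and 4152 treated. PYK10, a myrosinase of roots and hypocotyls, stood at 11.57 and 12.28 untreated and at 11.82 and 12.01 treated. It was thus also highest in untreated replicate 2, as were 28.6% of all probe sets. AGL21 and AGL42, transcription factor genes of the root, did not exceed the control level in any array. The part of root tissue in the values of EXPA7 and EXPA18 was not tested.

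In the 8 alpha-expansin genes outside the root hair the untreated gap was smaller or of the other sign, from -1.31 (EXPA16) to 0.36 (EXPA20). EXPA8 and EXPA16 were lower in untreated replicate 2 than in replicate 1, with a gap of -0.39 for EXPA8. Over the family 4 genes were highest in untreated replicate 1, 4 in untreated replicate 2 and 2 in a treated array. Of all probe sets 26.9% were highest in untreated replicate 1 and 28.6% in untreated replicate 2. The median gap between the untreated replicates was 0.05 for the 8 genes and 1.41 for the 2 root hair genes. Without untreated replicate 2 the difference of EXPA8 was -2.57, and without untreated replicate 1 it was -2.18. The gene was called in both fits.

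**Figure D4:**
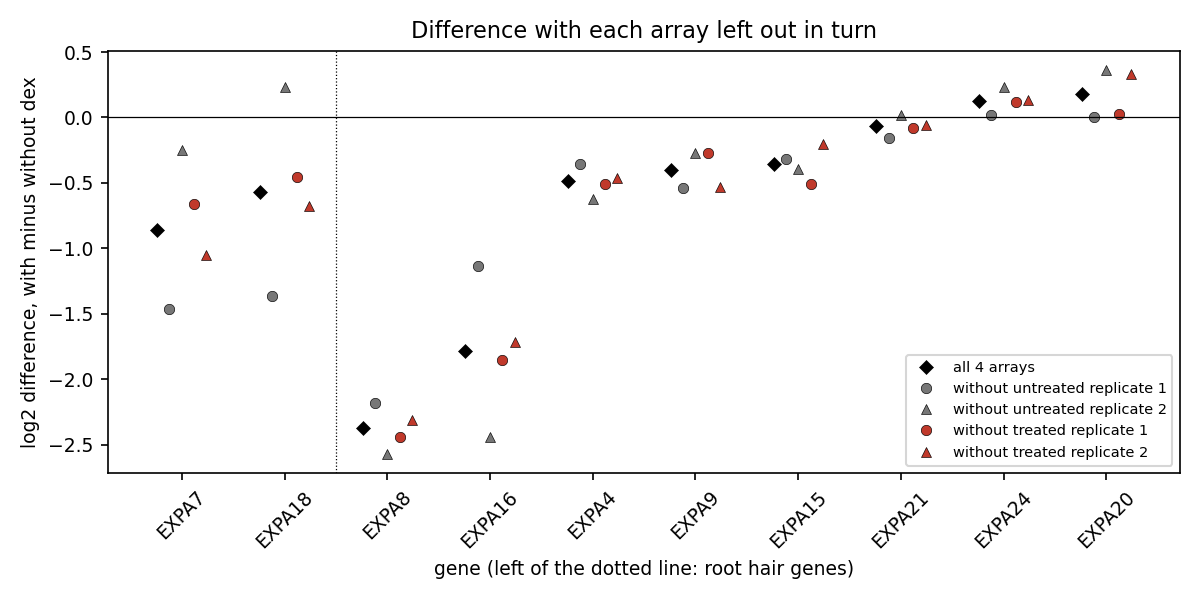
Log2 difference (treated minus untreated, vertical axis) of each alpha-expansin gene with all 4 arrays (diamonds) and with each array left out in turn. Grey symbols leave out an untreated and red symbols a treated array. EXPA8 ranges from -2.57 to -2.18, whereas EXPA18 ranges from -1.37 to 0.23 and crosses 0.

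As a family, 1 of 10 alpha-expansin genes was called lower and 0 higher by limma. Of all tested probe sets 0.879% were called lower and 1.49% higher, 2.37% in all. At an unadjusted p under 0.05, limma gave 3 genes (EXPA8, EXPA16 and EXPA4), all lower, against 8.37% of all probe sets in that direction. In 6 of 10 genes both treated arrays lay below both untreated arrays, as in 24.8% of all probe sets, and in 1 gene (EXPA24, dim) both lay above, as in 22.3%. The difference was below 0 in 8 of 10 genes and in 53.1% of all probe sets. The median difference was -0.45 for the family and -0.02 for all probe sets. It was -0.38 for the 8 genes outside the root hair and -0.71 for the 2 root hair genes, and -0.01 for the root hair genes without untreated replicate 2. The difference between these subgroups was not tested, since the members were chosen with results known.

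The 3 genes whose pattern over the 4 arrays was nearest to that of EXPA8 were AT2G39920, AT5G19120 and AT1G23390. Nearness was the root mean square distance of the 4 values after each gene was centred on its own mean, and it was 0.13, 0.20 and 0.21 log2 units. AT2G39920 went from 7.34 and 7.06 untreated to 5.12 and 5.01 treated. AT5G19120 read 10.80 and 10.50 untreated against 8.53 and 8.69 treated, and AT1G23390 read 9.74 and 9.34 against 6.82 and 7.26. Their differences were -2.14, -2.04 and -2.50. Since the 3 genes were chosen for their nearness to EXPA8, a fall of like size was fixed by the choice. AT1G23390 encodes a kelch F-box protein that targets chalcone synthase.

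No measured relative of the alpha-expansins outside the EXPA group was called. Beta-expansins (EXPB) and expansin-like proteins (EXLA and EXLB) share the fold of the family, and of 10 such genes 8 were measured and 0 called in limma. Their median difference was 0.08. Of all tested probe sets 2.37% were called in either direction, so 0 of 8 is close to that share. EXLA1 stood at 9.55 and 10.005 untreated and at 11.04 and 10.89 treated, a difference of 1.19 ± 0.19 (SE) just short of the threshold (limma adjusted p = 0.0556). EXLA1 was called higher in 8 of 17 alternative settings. These include the looser threshold of 0.1, passed by definition, and the floor at the control level, which left its values unchanged. They also include the fits without untreated replicate 1 or 2, at 0.96 and 1.41, where the gene's own spread comes from the treated pair alone. EXLA3 stood at 5.96 and 5.62 untreated and at 7.13 and 6.26 treated, a difference of 0.91 ± 0.32 (limma adjusted p = 0.242). EXLA2 stood at 0.35 ± 0.16 (limma adjusted p = 0.36). In all 3 EXLA genes both treated arrays lay above both untreated arrays, as in 22.3% of all probe sets. That is the opposite side from EXPA8, and none of the 3 was called. EXPB1, EXPB2, EXPB3 and EXPB5 had differences between -0.43 and 0.09, and EXPB5 was at or below the control level in 4 of 4 arrays.

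Xyloglucan endotransglucosylase/hydrolases (XTH) cut and rejoin the xyloglucan that tethers cellulose and act beside expansins in growing walls. Of 33 XTH genes 10 were measured, of which 1 was called lower and 0 higher in limma. Of all tested probe sets 0.879% were called lower and 1.49% higher. The median difference of the measured XTH genes was -0.13. XTH27, listed as EXGT-A3, fell from 10.05 and 9.97 untreated to 9.05 and 9.05 treated, a difference of -0.96 ± 0.12 (limma adjusted p = 0.0372). Its call ended without untreated replicate 2 (limma adjusted p = 0.0564) and without either treated array (0.258 and 0.238). XTH18 had the highest difference, with 9.10 and 9.29 untreated and 11.84 and 10.50 treated, and was not called (1.98 ± 0.44, limma adjusted p = 0.103). Its treated gap, replicate 2 minus 1, was -1.34. With values floored at the control level XTH18 was called higher (limma adjusted p = 0.0149). The floor left its values and difference unchanged and only lowered its SE, from 0.44 to 0.36. XTH33 stood at -1.06 ± 0.33 (limma adjusted p = 0.199) and was not called. It read 7.01 and 7.87 untreated against 6.63 and 6.15 treated. The untreated gap of 0.86 was larger in size than that of 95.9% of all probe sets. The difference of XTH33 became -1.49 once untreated replicate 1 was dropped, but only -0.63 once replicate 2 was dropped instead. Each of these fits keeps a single untreated array, so the gene's own spread comes from the treated pair alone.

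**Figure D5:**
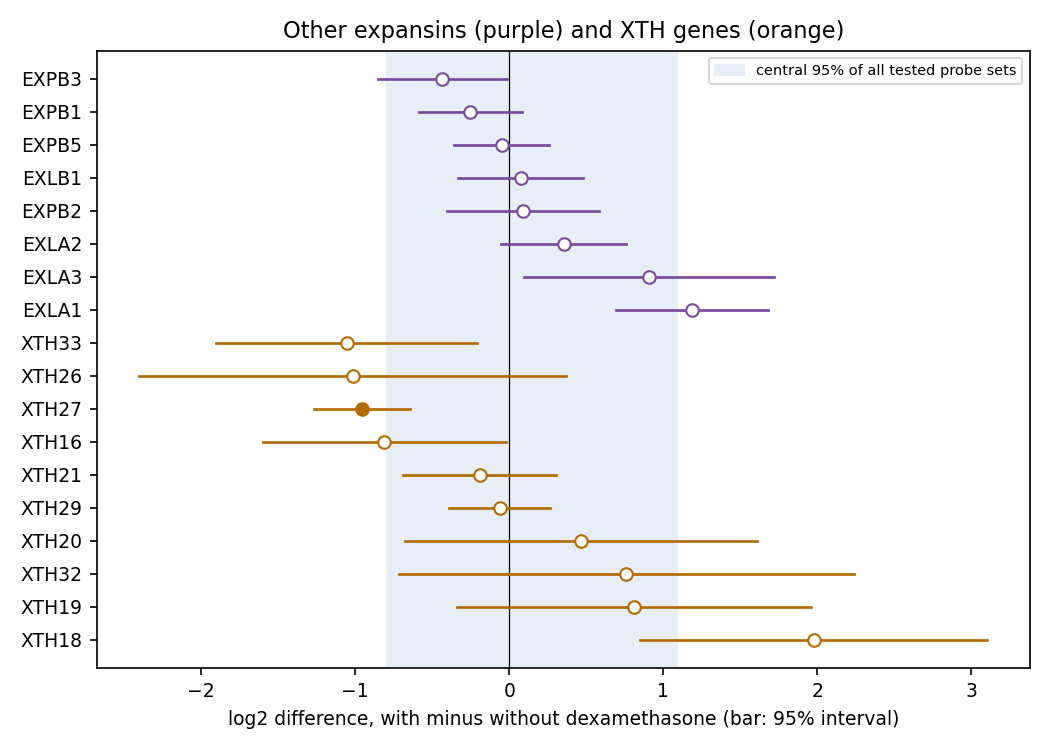
Log2 difference (treated minus untreated, horizontal axis) with its 95% interval for the 8 measured beta-expansin and expansin-like genes (purple) and the 10 measured XTH genes (orange). The filled point is XTH27, the called gene, and the shaded band holds the central 95% of all tested probe sets. The 3 EXLA genes lie to the right of 0, and the XTH genes spread from -1.06 to 1.98.

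Among hormone genes tied to elongation 4 of 29 were measured, 2 called lower and 1 higher in limma. Of all tested probe sets 0.879% were called lower and 1.49% higher, and this list was chosen with earlier results known. IAA29, an auxin-response repressor gene, stood at 9.16 and 8.90 untreated and at 7.22 and 7.28 treated, and fell, with a difference of -1.78 (limma adjusted p = 0.0231). Of the gibberellin receptor genes, GID1A fell from 8.47 and 8.15 to 6.92 and 6.64 (limma adjusted p = 0.0342) and GID1B rose from 6.83 and 6.53 to 8.00 and 7.75 (0.045). GID1C, the other receptor gene measured, stood at -0.28 ± 0.15 (SE) and was not called (limma adjusted p = 0.419). The GID1B call ended without untreated replicate 2. The calls of IAA29, GID1A and GID1B also ended without either treated array, in fits that called no probe set. None of the 11 plasma membrane proton pump genes, which acidify the wall, had a probe set matched to it alone. Of 12 green leaf genes 3 were measured and 0 called in limma, against 2.37% of all tested probe sets. The summed linear signals of the 3 genes were 25228 and 24822 untreated and 23790 and 25202 treated. PORB and RCA stood at -0.85 and 0.16. Of the shoot apex markers, UFO and LAS stood at -0.12 and 0.24, uncalled.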

How the data were processed

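The authors deposited one log2 RMA value per probe set and array, made with RMA and the affy package per the submitters' processing notes. For versions, filters, array quality checks and a genome build, the labels give nothing (not given in the sources used here). Groups and replicate numbers come from the sample titles. Of 22810 probe sets, 64 control probe sets were left out and 22746 tested, of which 13513 matched 1 gene, 503 several and 8730 none in the annotation used. Symbols were updated through gene identifiers in the RefSeq gene table.

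Treated and untreated arrays were tested against each other in R 4.3.3 with the package limma 3.58.1, using lmFit and eBayes on all 4 arrays with no block, trend or filter and with Benjamini-Hochberg adjustment over all tested probe sets. The fit was tested on simulated data. RMA cannot show a shift shared by all transcripts, and 2 arrays per group limit the precision. Arrays carry no read depth.

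The members, the 8 further gene lists and the control level were chosen with earlier results of these data known. By rule, the named genes are all members, the called genes of each list or else the 2 with the smallest p, and the 3 nearest to EXPA8. XTH18, XTH26, XTH33, EXLA2, GID1C, PYK10, YAB3, CLV3 and the EXPB genes were named after their values were seen. The planned descriptions of promoter motifs and of proteins were not run, as no sequence was used here.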

Additional observations from a re-analysis of the deposited data

How the results depend on the processing

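Over 17 alternatives EXPA8 kept its negative difference (-2.57 to -2.18) and was called in all but the unmoderated test, the adjusted p of 0.01 and the fits without a treated array. The number of alpha-expansin genes called lower was 0 in the unmoderated test and at an adjusted p of 0.01, 2 with values floored at the control level, and 0 to 4 when 1 array was left out, and the number called higher was 0 throughout. The median difference of the family was -1.14 without the dimmest 50% of probe sets, which kept 4 members, none of them a root hair gene, so that the median of the other genes was also -1.14. Leaving out 1 array gave -0.50 to -0.26 for the family, -0.39 to -0.33 for the others and -1.42 to -0.0056 for the root hair genes.

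Over all probe sets, limma called 200 lower and 339 higher. With the replicate number as a block it called 300 lower and 559 higher, and EXLA1 and PORB became called (adjusted p = 0.0496 and 0.0466) while no alpha-expansin call changed. Replicate deviations correlated at 0.227 between groups over only 2 pairs, which cannot show that equal numbers mark paired samples. The counts were 0 and 0 in the unmoderated test and at 0.01 (2580 and 3902 at an unadjusted p under 0.05), 101 and 172 with probe sets matched to 1 gene, 532 and 779 at an adjusted p of 0.1, 646 and 981 with the floor, and 0 to 458 and 0 to 734 without 1 array.

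Signs changed in some uncalled genes. With the floor EXPA24 stood at -0.011, which is only the difference of the control levels, since all of its arrays lay at or below them. PYK10 stood at 0.013 after quantile normalization once more. Leaving out 1 array gave -1.37 to 0.23 for EXPA18, -0.16 to 0.022 for EXPA21, -3.27 to 0.023 for PRX44, -0.36 to 0.35 for PYK10, -0.14 to 0.0035 for YAB3 and -0.059 to 0.036 for AGL42. For these array-dependent signs the cause was not tested. The other promoter window was not run. Signal near the control level limits EXPA7, EXPA18, EXPA21 and EXPA24.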
